A study of Rattus norvegicus with 172 samples.

Results

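The gene expression of dentate granule cells 1 day after status epilepticus (SE), a state of prolonged seizures, was compared between a laboratory in which kainate-induced SE was left to end on its own and a laboratory in which it was cut short with a barbiturate. The animals were chosen by their labels alone and were 24 of the 164 rats of a series on epilepsy models, 6 in each of 4 groups. Per the labels, all were male Sprague-Dawley rats of 175 to 250 g. Nadler day 1 rats received kainic acid at 5 mg/kg into the peritoneum every hour until SE, which ended without treatment after 6 to 8 h, and Nadler control rats received saline. Wadman day 1 rats had a first dose of 7.5 mg/kg, then 5 mg/kg every hour, and pentobarbital was given 90 min after the onset of SE, while Wadman control rats received saline. Rats of both laboratories needed 5 to 6 injections. The Nadler rats came from Charles River in Raleigh and the Wadman rats from Harlan in the Netherlands, so laboratory, supplier, first dose, pentobarbital and duration of SE cannot be told apart. The labels also define SE onset by 3 h of continuous seizures, which is longer than the 90 min after which it was stopped, and they do not say whether control rats received pentobarbital.

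Kainate is an agonist of the kainate class of glutamate receptors and drives seizures that start in the hippocampus. Granule cells are the principal neurons of the dentate gyrus. They receive the cortical input to the hippocampus and send mossy fibres to the pyramidal cells of CA3, and they outlive most SE models while mossy cells and many pyramidal cells die. After SE they are known for a burst of activity-dependent transcription, for making neuropeptides such as neuropeptide Y, and for sprouting new mossy fibres. How long SE lasts is known to bear on how much damage follows.

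RNA came from granule cells cut by laser from 10 µm sections stained with cresyl violet, with an integrity number above 7 and at least 10 ng per rat, and it was hybridised to a 1-colour Affymetrix array. Values are given as log2(signal + 16), where the signal is the linear intensity of a probe set. A change called 2-fold is 1 unit on this scale, and in dim genes it is a larger change of the signal itself. A response is day 1 minus control of the same laboratory on this scale, and the difference of responses is the Nadler response minus the Wadman response, so that a negative value means a higher response in Wadman rats. Tests are limma's moderated tests over 10761 genes with Benjamini-Hochberg adjustment. A gene counted as changed at an adjusted p under 0.05, errors are standard errors unless SD is named, and n was 6 rats a group. P-values measure the spread between these rats, each with 1 array. In control rats the granule cell markers Prox1, a transcription factor of granule cell identity, and Calb1, the calcium buffer calbindin, had signals of 1640 to 3930 and 1110 to 1950. Markers of other cells were also present: the astrocyte gap junction gene Gja1 stood at 1300 to 3460 and the myelin gene Mbp at 790 to 3080, and the part of such cells in the results was not tested. The median signal of the arrays was 27.96 to 33.17 in Nadler day 1 rats and 28.45 to 33.20 in Nadler controls, and 29.5 to 38.0 in Wadman day 1 rats and 35.4 to 38.7 in Wadman controls. Of 8 exact permutation tests of array quality between day 1 and control, none had an adjusted p under 0.05. The lowest p was for Gapdh, as the log2 ratio between its 3′ and its 5′ array controls, a sign of RNA length, which averaged 1.11 in Nadler day 1 rats and 1.51 in Nadler controls (exact p = 0.0216, adjusted p = 0.173). Nadler day 1 rat 1 stood apart, with a median correlation of 0.96 to the other rats of its group against 0.981 to 0.982 for these. Without it and 5 such rats of other groups, 1 gene passed the difference of responses, 2282 passed in Nadler rats and 3672 in Wadman rats, against 1, 2323 and 3513 with them.

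Col11a1, which encodes the alpha 1 chain of the fibrillar collagen XI, was the 1 gene of 10761 (0.00929%) whose day 1 response differed between the laboratories after adjustment. Its log2 values were 4.86, 5.55 and 6.59 (lowest, median and highest) in Nadler day 1 rats and 5.58, 5.74 and 6.59 in Nadler controls. In Wadman rats they were 7.39, 8.12 and 8.82 at day 1 and 5.99, 6.31 and 6.73 in controls. All 6 Wadman day 1 rats thus lay above every Wadman control and above every Nadler rat of these groups, while the Nadler day 1 rats overlapped their controls. Col11a1 was chosen by the contrast of these same rats, so this separation is given as a description. The mean ± SD was 5.57 ± 0.59 in Nadler day 1 rats and 5.91 ± 0.41 in Nadler controls, and 8.09 ± 0.65 in Wadman day 1 rats and 6.33 ± 0.26 in Wadman controls (n = 6 each). Col11a1 rose by 1.76 ± 0.24 in Wadman rats (limma, adjusted p = 1.9e-07), and the Nadler response was -0.34 ± 0.24 (adjusted p = 0.366). The difference of responses was -2.10 ± 0.34, with a 95% interval of -2.79 to -1.40 (limma, adjusted p = 0.0025). The controls themselves differed by -0.42 between Nadler and Wadman rats, which did not pass (adjusted p = 0.168).

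The call on Col11a1 depended on which rats set the spread. The size of the difference could not depend on it, because each group had its own mean in every fit. The spread was taken from all 48 kainate rats, days 3 and 10 included. With only the 24 rats of the 4 groups in the fit the difference was again -2.10 with an adjusted p of 0.0597, and with all 28 groups of the series in the fit it was -2.10 with an adjusted p of 0.0909 (limma). Another probe set of the gene gave a difference of -2.07 beside the -2.10 of the probe set used, from responses of -0.82 in Nadler and 1.25 in Wadman rats beside -0.34 and 1.76. Both passed when all 19949 probe sets were tested singly (limma, adjusted p = 0.00226), and no other probe set did. The remaining one was too dim to be tested, with mean log2 values of 4.10 in Nadler day 1 rats and 4.17 in Nadler controls, and 4.81 in Wadman day 1 rats and 4.31 in Wadman controls.

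Col11a1 was then followed over the other groups of the series. At day 3 it stood at 5.65, 6.04 and 6.64 in Nadler rats and at 6.84, 7.29 and 7.48 in Wadman rats (lowest, median and highest), which did not overlap. At day 10 the values were 5.07, 5.64 and 6.11 in Nadler rats and 5.98, 6.75 and 7.18 in Wadman rats, which overlapped. The differences of responses were -2.10 ± 0.34 at day 1, -0.74 ± 0.34 at day 3 and -0.52 ± 0.34 at day 10. These times share their control rats, and neither later difference passed (limma, adjusted p = 1 and 0.9999). In the pilocarpine model, in which SE was started with a cholinergic agonist and stopped with pentobarbital after 90 min in both laboratories, Col11a1 rose by 1.57 ± 0.47 in Dingledine rats (adjusted p = 0.0118) and by 1.55 ± 0.47 in Coulter rats (adjusted p = 0.0187). Its values at pilocarpine day 1 were 6.74, 7.43 and 8.75 in Dingledine rats, against 5.47, 6.02 and 6.69 in their controls. Coulter rats had 7.17, 7.61 and 8.93 at day 1, against 5.84, 6.18 and 6.80 in controls, and in both laboratories day 1 and control rats did not overlap. In self-sustaining status epilepticus (SSSE), the values were 6.04, 6.78 and 7.69 at day 1 (n = 6) and 5.99, 6.40 and 7.61 in controls (n = 5). The response of 0.16 ± 0.32 did not pass (limma, adjusted p = 0.768). The labels of 1 of these day 1 rats disagree, with day 1 in its title and control elsewhere, and without it, an alternative added after the data were seen, the response was 0.15 ± 0.34 (limma, adjusted p = 0.81). The responses of the different models were not tested against each other.

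**Figure D1:**
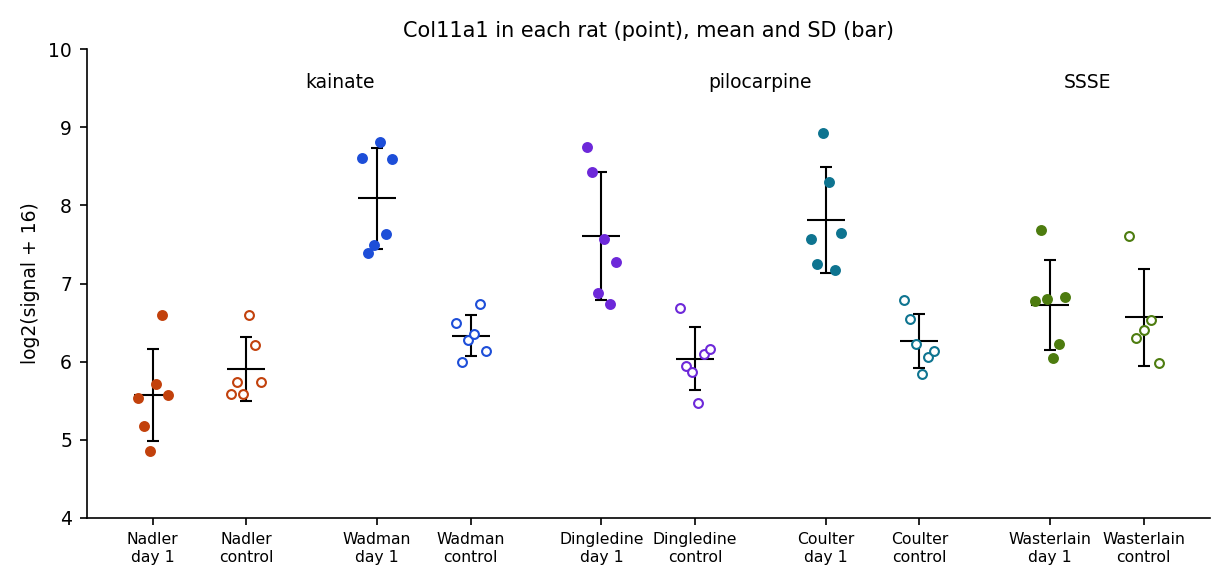
Col11a1 in each rat as log2(signal + 16) on the vertical axis, with day 1 groups (filled points) left of their controls (open points) and bars for the mean and SD. Wadman day 1 rats sit at 7.39 to 8.82, above the Nadler day 1 rats at 4.86 to 6.59, and in the pilocarpine laboratories Dingledine and Coulter day 1 lies above control by 1.57 and 1.55.

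Most genes that changed in Nadler rats at day 1 also changed, in the same direction, in Wadman rats. In Nadler rats 2323 genes changed (21.6%; 1329 higher, 994 lower), and the size was 2-fold or more in 273 of the rises and 205 of the falls. In Wadman rats 3513 genes changed (32.6%; 1765 higher, 1748 lower), with 331 rises and 304 falls of 2-fold or more. The order of these totals turned with the spread that was used. With each laboratory fitted alone, an alternative added after the data were seen, 3128 genes passed in Nadler rats and 2686 in Wadman rats, and with a weight for each array 3594 and 2895 passed. The median SD over genes was 0.187 in Nadler day 1 rats and 0.193 in Nadler controls, against 0.302 in Wadman day 1 rats and 0.237 in Wadman controls. With the median of every array set equal, 60.7% of the calls in Wadman rats were rises, instead of 50.2%.

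In both laboratories 1728 genes passed in the same direction, which is 74.4% of the Nadler calls and 49.2% of the Wadman calls. Of the 594 genes that passed in Nadler rats alone, 532 had the same sign in Wadman rats, and of the 1784 that passed in Wadman rats alone, 1627 had the same sign in Nadler rats. Across all genes, which are not independent replicates, the responses correlated at r = 0.851, with SDs of 0.470 in Nadler and 0.538 in Wadman rats. Among the 1728 shared genes the Nadler response was the larger one in 654 (37.8%). That count rests on genes chosen by these same responses, so genes were also chosen on other rats. Of the 250 genes with the largest rises at pilocarpine day 1, the median response was 1.25 in Nadler rats and 1.48 in Wadman rats, and it was larger in Nadler rats in 89. Of the 250 largest falls there, the medians were -1.05 in Nadler and -1.27 in Wadman rats, with the larger fall in Nadler rats in 78. For the 250 largest rises and falls at SSSE day 1, the medians were 1.28 and -1.05 in Nadler rats and 1.38 and -1.11 in Wadman rats. The Nadler response was the larger one in 104 of these rises and 112 of these falls, the same counts as without the SSSE day 1 rat whose labels disagree.

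**Figure D2:**
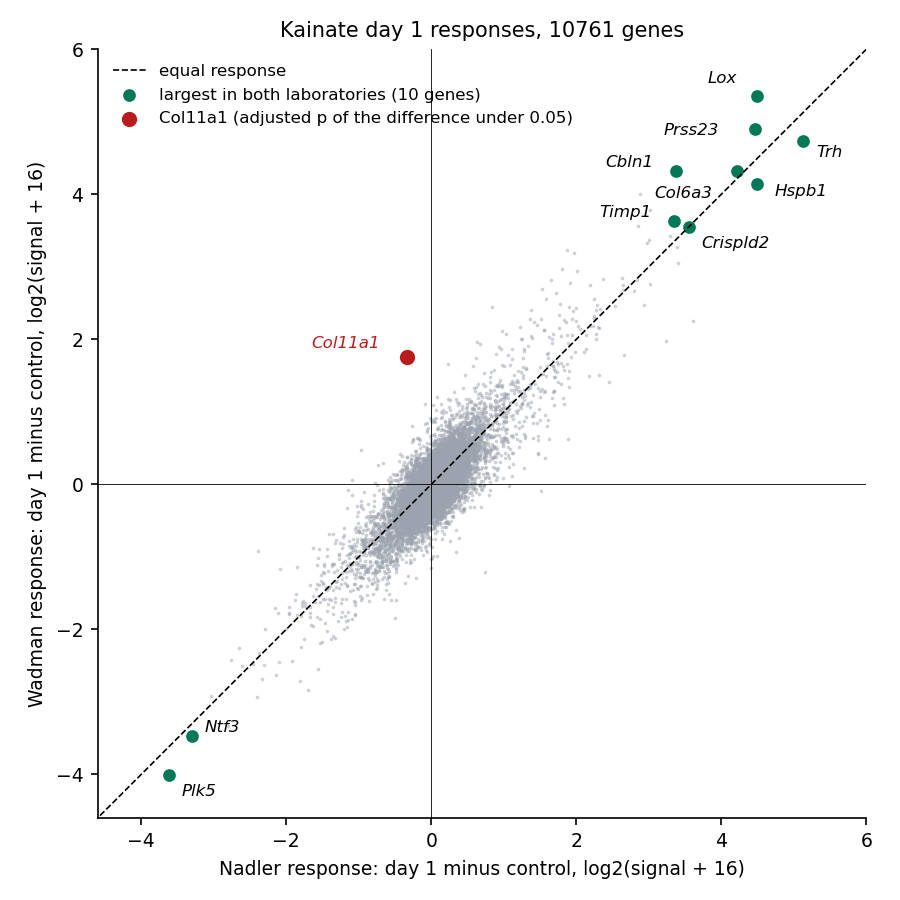
Each point is 1 of 10761 genes, with the Nadler response on the horizontal axis and the Wadman response on the vertical axis, both as day 1 minus control in log2(signal + 16), and the dashed line marks equal responses. The genes with the largest responses common to both laboratories are marked, and so is Col11a1, at -0.34 and 1.76. All were chosen by these same responses, so their distance from the line is only a description.

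The 10 genes with the largest responses common to both laboratories were chosen by those responses, so the distance of their day 1 rats from controls is given as a description. Trh, the precursor of thyrotropin-releasing hormone, had values of 10.87, 11.25 and 11.43 in Nadler day 1 rats and 5.49, 6.11 and 6.82 in Nadler controls, and of 8.17, 11.18 and 11.41 in Wadman day 1 rats and 5.37, 5.65 and 6.06 in Wadman controls. It rose by 5.13 ± 0.50 in Nadler rats and by 4.74 ± 0.50 in Wadman rats (limma, adjusted p = 9.6e-11 and 4.3e-10), and 2 Wadman day 1 rats lay well below the other 4. Lox, the enzyme that cross-links collagen and elastin, stood at 9.73, 10.16 and 10.78 in Nadler day 1 rats and 5.30, 5.79 and 6.17 in Nadler controls, and at 10.09, 11.05 and 11.73 in Wadman day 1 rats and 5.15, 5.62 and 6.38 in Wadman controls. Its responses were 4.50 ± 0.39 in Nadler and 5.36 ± 0.39 in Wadman rats, and the difference of -0.86 ± 0.55 did not pass. The serine protease Prss23 rose by 4.47 in Nadler and 4.90 in Wadman rats, the collagen gene Col6a3 by 4.22 and 4.32, and the small heat shock protein gene Hspb1 by 4.50 and 4.14. Rises in Nadler and Wadman rats were 3.55 and 3.54 for the secreted protein gene Crispld2, 3.38 and 4.32 for the synapse organiser Cbln1, and 3.35 and 3.63 for the protease inhibitor Timp1. Plk5, a polo-like kinase of granule cells, was at 4.63, 5.39 and 5.71 in Nadler day 1 rats and 8.27, 9.11 and 9.27 in Nadler controls, and at 4.74, 5.09 and 5.60 in Wadman day 1 rats and 8.61, 9.11 and 9.74 in Wadman controls. It fell, with responses of -3.62 ± 0.40 in Nadler and -4.01 ± 0.40 in Wadman rats. The neurotrophin Ntf3 was at 5.79, 7.46 and 8.21 in Nadler day 1 rats and 10.14, 10.48 and 10.82 in Nadler controls, and at 5.68, 6.73 and 8.33 in Wadman day 1 rats and 10.00, 10.31 and 10.60 in Wadman controls. Its responses were -3.30 ± 0.54 in Nadler and -3.47 ± 0.54 in Wadman rats, and both passed. None of the 10 differences of responses passed, and the 95% interval of each of the 10 still holds differences of more than 2-fold, from -2.39 to 0.50 for Cbln1 and from -1.11 to 1.13 for Crispld2.

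The promoters of the gene that differed and of the gene with the largest rise in Nadler rats are shown as examples, with the 250 bases before each start. They are RefSeq sequences of the rat build GRCr8, 5′ to 3′ on the gene's own strand, and capitals mark matches to TGACG or its reverse complement CGTCA, the core letters of the cyclic AMP response element through which activity-dependent transcription often runs. Of the 20 genes named by rule, 12 had a sequence in the table. The Col11a1 sequence is at chr2:204508886-204509135 (plus strand) and has no match, and the Trh sequence is at chr4:126301763-126302012 (minus strand) and has 1 match, which begins 74 bases before the start. The letters occur in 6097 of 33469 promoters of that length (18.2%), and a match is no measured binding site.
Col11a1 promoter: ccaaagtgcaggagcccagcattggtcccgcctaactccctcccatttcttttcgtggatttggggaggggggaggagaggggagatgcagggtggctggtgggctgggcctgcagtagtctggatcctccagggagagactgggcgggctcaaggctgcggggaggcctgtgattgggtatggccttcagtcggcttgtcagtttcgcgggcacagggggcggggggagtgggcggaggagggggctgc
Trh promoter: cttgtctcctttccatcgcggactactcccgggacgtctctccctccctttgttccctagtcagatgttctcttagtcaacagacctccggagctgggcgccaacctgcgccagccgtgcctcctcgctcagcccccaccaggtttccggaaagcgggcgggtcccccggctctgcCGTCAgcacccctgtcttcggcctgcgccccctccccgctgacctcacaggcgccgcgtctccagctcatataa

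**Figure D3:**
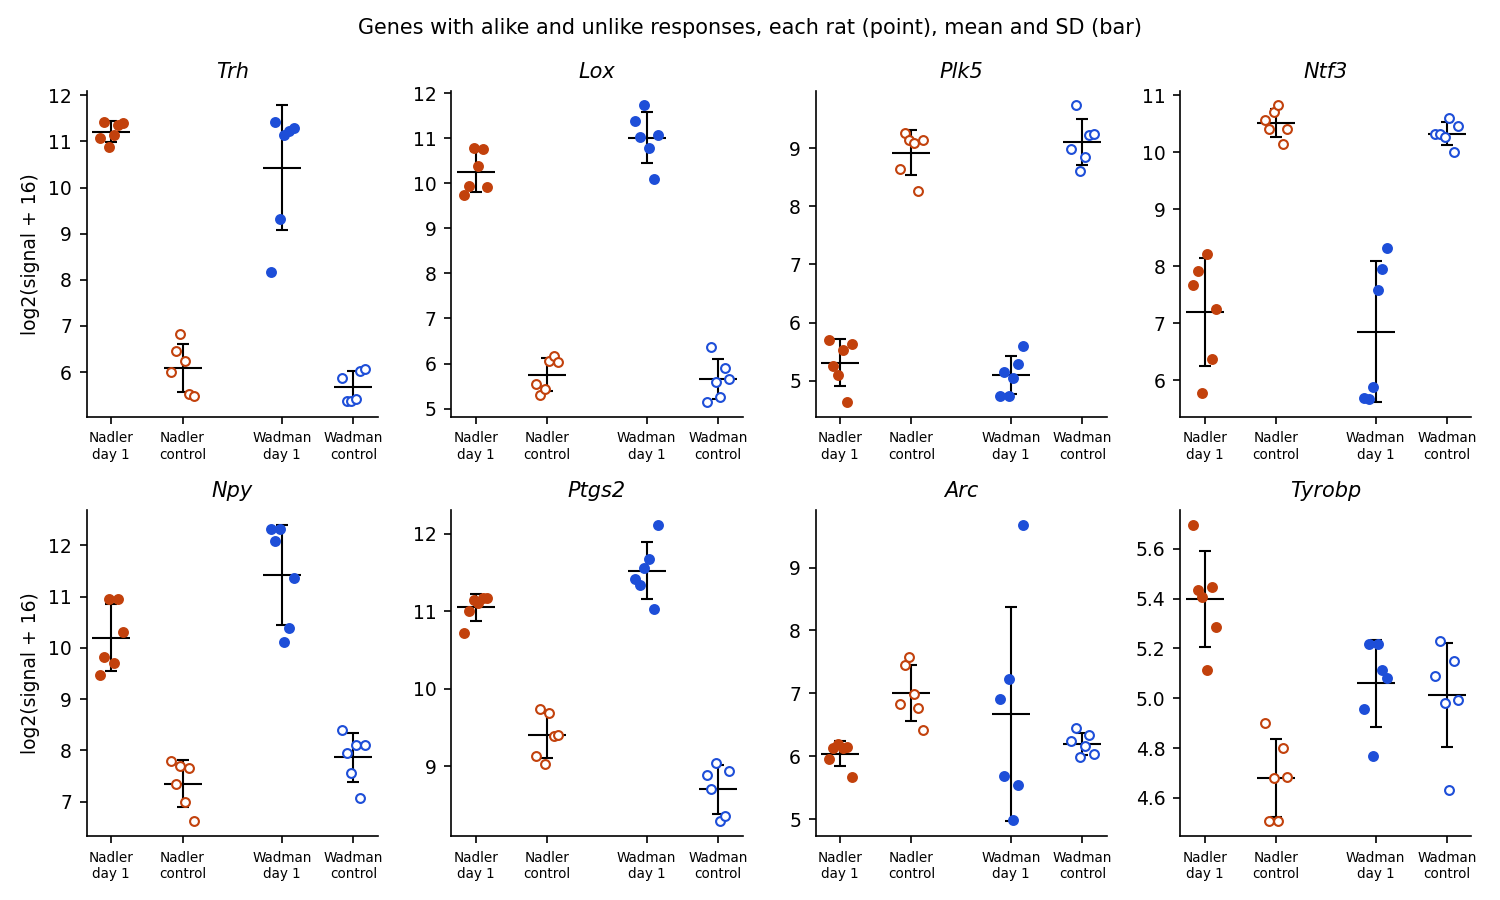
Log2(signal + 16) of 8 genes in each rat, with the Nadler groups (orange) left, the Wadman groups (blue) right, day 1 as filled and control as open points, and bars for the mean and SD. Trh, Lox, Plk5, Ntf3, Npy and Ptgs2 separate day 1 from control in both laboratories. Arc is split among Wadman day 1 rats, and Tyrobp is higher at day 1 in Nadler rats, with a response of 0.72 in Nadler and 0.05 in Wadman rats.

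How large a difference could have been missed was read from the intervals. The 95% interval of the difference of responses lay within 2-fold in either direction for 9438 genes (87.7%), with a median of 0.43 from the estimate to either bound. The mean response over both laboratories passed in 4478 genes (41.6%; 2393, 22.2%, higher and 2085, 19.4%, lower), and in 508 of these it was at least 2-fold. Among those 508 the interval lay within 2-fold for 257 (50.6%), with a median of 0.66 to either bound. The estimated difference was 2-fold or more in 51 genes. At an unadjusted p under 0.05, 921 genes (8.56%) differed, 565 with a higher and 356 with a lower response in Nadler rats. The same contrast between the pilocarpine laboratories at day 1, Dingledine minus Coulter, which both stopped SE after 90 min, passed 0 genes with limma (0%; 1090 genes, 10.1%, at an unadjusted p under 0.05). With all 28 groups in the fit it passed 412, and with array weights 3. The lowest and highest 1% of the differences began at -0.707 and 0.727 for kainate and at -0.946 and 0.872 for pilocarpine. Between the kainate laboratories at day 3 and at day 10, which share the controls with day 1, limma passed 0 genes (0%), with 259 (2.41%) and 329 (3.06%) at an unadjusted p under 0.05. The smallest adjusted p at day 3, 0.0609, was that of Pdpn, the membrane glycoprotein podoplanin, at -1.46 ± 0.28.

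**Figure D4:**
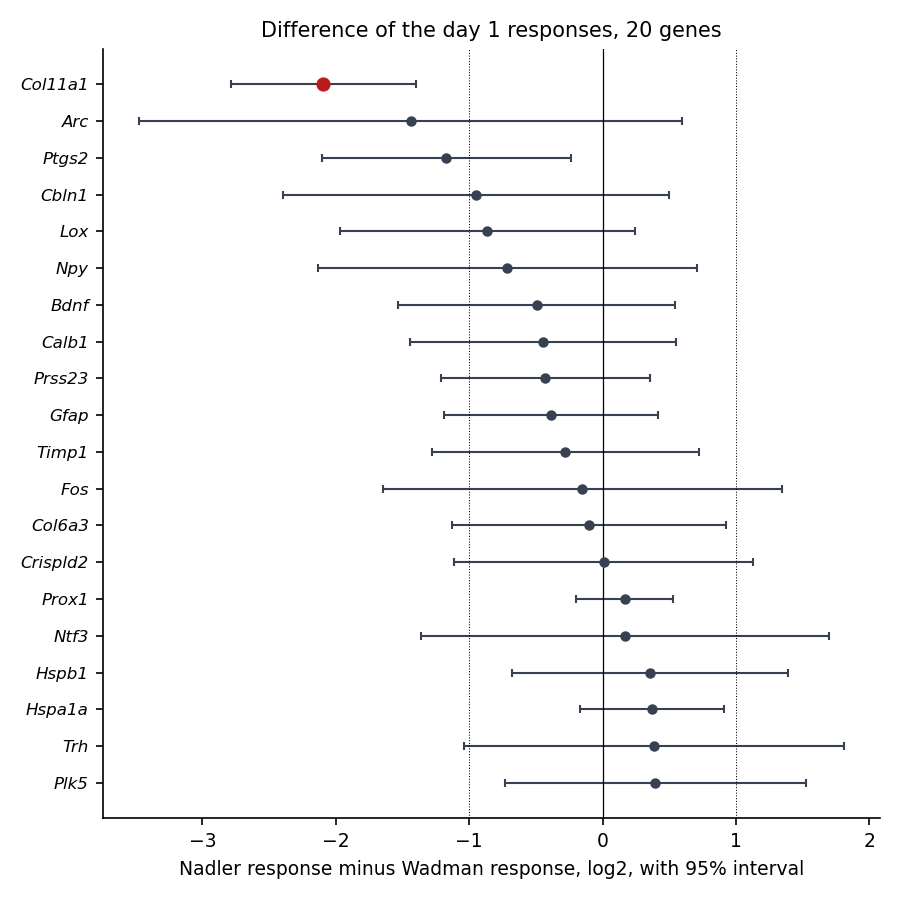
Difference of responses, Nadler minus Wadman, for the 20 genes named by rule, with 95% intervals on the log2 scale and dotted lines at 2-fold in each direction. Col11a1 lies at -2.10 (-2.79 to -1.40), the interval of Ptgs2 (-2.10 to -0.24) also leaves out 0 before adjustment, and the other 18 intervals include 0.

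A few genes that missed the threshold are named here after their values were seen, and they are examples rather than the next in order. Rnf123, a ubiquitin ligase gene, was the 1 gene that passed in both laboratories in opposite directions, with the probe set used. Its values were 7.81, 7.92 and 8.18 in Nadler day 1 rats and 7.30, 7.69 and 7.98 in Nadler controls, and 6.70, 6.90 and 7.02 in Wadman day 1 rats and 7.17, 7.31 and 7.50 in Wadman controls. The Nadler groups overlapped and the Wadman groups did not. It rose by 0.29 ± 0.11 in Nadler rats (adjusted p = 0.0409) and fell by 0.44 ± 0.11 in Wadman rats (adjusted p = 0.00105), with a difference of 0.73 ± 0.15 (limma, adjusted p = 0.0712). Another probe set above the filter did not show opposite directions. Its responses were 0.51 in Nadler and 0.44 in Wadman rats, with a difference of 0.06. A dim probe set was not tested. Dclk1, a microtubule-associated kinase, rose by 1.27 ± 0.15 in Wadman rats with a Nadler response of 0.31 ± 0.15 (difference adjusted p = 0.15). Camk2b, the beta subunit of a calcium-dependent kinase, fell by 0.81 ± 0.12 in Wadman rats with a Nadler response of -0.12 ± 0.12 (difference adjusted p = 0.213). For Camk2b the control rats differed by -0.93 between Nadler and Wadman (limma, adjusted p = 8.8e-08). Its day 1 rats differed by -0.235, which did not pass (limma, adjusted p = 0.127). Cacna1g, a T-type calcium channel subunit, rose by 1.07 ± 0.19 in Nadler rats, with a Wadman response of -0.02 ± 0.19 (difference adjusted p = 0.187). The gene was dim in all 4 groups. Its median signal was 27.3 in Nadler day 1 rats and 3.24 in Nadler controls, and 13.7 in Wadman day 1 rats and 15.9 in Wadman controls. Its day 1 rats differed by 0.50 (adjusted p = 0.0329) and the controls by -0.59 (adjusted p = 0.0128), Nadler minus Wadman. Some estimates were large but came with a wide spread. Col6a1, a chain of collagen VI, averaged 8.09 ± 0.45 in Nadler day 1 rats and 6.57 ± 0.83 in Nadler controls, and 6.93 ± 0.55 in Wadman day 1 rats and 7.03 ± 0.60 in Wadman controls (SD). It rose by 1.52 in Nadler rats, with a Wadman response of -0.10 and a difference of 1.61 ± 0.57 (limma, adjusted p = 0.469). Tafa1, a secreted brain protein gene, averaged 6.85 ± 0.84 in Nadler day 1 rats and 9.24 ± 0.23 in Nadler controls, and 8.30 ± 1.51 in Wadman day 1 rats and 9.22 ± 0.24 in Wadman controls (SD). It fell by 2.39 in Nadler rats, with a Wadman response of -0.93 that did not pass and a difference of -1.47 ± 0.54 (limma, adjusted p = 0.475). Rgs4, which curbs G protein signalling, rose in both laboratories, by 2.88 in Nadler and 4.01 in Wadman rats, with a difference of -1.13 ± 0.63 (limma, adjusted p = 0.626).

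Microglia and macrophage markers were the list with the highest median difference of responses. Of 13 measured members, 7 rose and 0 fell in Nadler rats, where 12.4% and 9.24% of all genes rose and fell, and 3 rose and 0 fell in Wadman rats, where these shares were 16.4% and 16.2%. The median response was 0.70 in Nadler and 0.20 in Wadman rats, beside 0.04 and -0.01 over all genes tested, and the median difference of responses was 0.54, beside 0.04. The Fc receptor chain Fcer1g rose by 1.12, the leukocyte phosphatase Ptprc by 0.90, the signalling adaptor Tyrobp by 0.72 and the complement gene C1qb by 0.68 in Nadler rats. Their responses in Wadman rats, of 0.43, 0.20, 0.05 and -0.06, did not pass. The lysosomal gene Cd68, the endotoxin coreceptor Cd14 and the complement gene C1qc rose in both laboratories, by 1.02, 1.27 and 0.70 in Nadler rats and by 0.63, 1.51 and 0.78 in Wadman rats. Tyrobp was at 5.11, 5.42 and 5.70 in Nadler day 1 rats and 4.51, 4.68 and 4.90 in Nadler controls, which did not overlap, and at 4.77, 5.10 and 5.22 in Wadman day 1 rats and 4.63, 5.04 and 5.23 in Wadman controls, which did. The difference of 0.67 ± 0.16 did not pass (limma, adjusted p = 0.159), and no other member did. For Tyrobp the day 1 rats differed by 0.34 and the controls by -0.33, Nadler minus Wadman (limma, adjusted p = 0.0139 and 0.0157). The summed signal of the 13 members was 521, 864 and 1045 in Nadler day 1 rats and 361, 432 and 1127 in Nadler controls, and 426, 629 and 1054 in Wadman day 1 rats and 434, 516 and 587 in Wadman controls, and groups of both laboratories overlapped. Most members were dim: in control rats the median signal was 12.9 for Tyrobp and 6.83 for Ptprc. Under a stricter filter, above the 75th percentile of the array in 6 rats, only 3 members were measured, of which 1 rose in Nadler rats and 0 in Wadman rats. The part of more or fewer microglia in these values was not tested, and in RNA of many cells, fewer cells of a type and less RNA per cell cannot be told apart.

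Of 14 proliferation genes, 6 (42.9%) rose in Nadler rats, beside 12.4% of all genes, and 3 (21.4%) in Wadman rats, near the 16.4% of all genes, and 0 fell in either. The cell cycle kinase genes Cdk1 and Aurka rose by 0.63 and 0.64 in Nadler rats, with responses of 0.31 and 0.48 in Wadman rats, while the replication licensing gene Mcm2 rose in both, by 0.59 and 0.52. Over all genes 9.24% fell in Nadler and 16.2% in Wadman rats. Markers of granule cells fell in both laboratories, 11 of 13 (84.6%) in Nadler and 12 of 13 (92.3%) in Wadman rats, with 0 rises. Their summed signal was 7091 to 8077 in Nadler day 1 rats and 14790 to 17950 in Nadler controls, and 7179 to 9180 in Wadman day 1 rats and 16330 to 19690 in Wadman controls, and day 1 lay below control in every rat of both. The responses were -2.33 in Nadler and -2.69 in Wadman rats for the collagen gene Col25a1, -3.04 and -2.92 for the zinc finger gene Rreb1, and -0.66 and -0.82 for Prox1. Calb1 fell by 1.26 ± 0.35 in Nadler rats (limma, adjusted p = 0.00633), and its Wadman response of -0.81 ± 0.35 did not pass (adjusted p = 0.0689). Of the 12 astrocyte markers, 2 (16.7%) rose and 5 (41.7%) fell in Nadler rats. In Wadman rats 2 (16.7%) rose and 6 (50%) fell. The filament genes Gfap and Vim rose in both, by 1.76 and 2.19 in Nadler and by 2.15 and 2.18 in Wadman rats. Gja1 fell, with responses of -0.75 in Nadler and -1.44 in Wadman rats. None of the 12 oligodendrocyte markers passed limma's test in either laboratory. Of 13 pyramidal and mossy cell markers, 3 (23.1%) rose and 1 (7.69%) fell in each laboratory. The imprinted proteolipid gene Nnat rose by 2.84 in Nadler and 2.82 in Wadman rats.

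Immediate early genes are transcribed within minutes of strong activity. Of 27 measured, 4 (14.8%) rose in Nadler rats, near the 12.4% of all genes, and 10 (37%) rose in Wadman rats, beside 16.4% of all genes. None fell by limma's test in either laboratory, and the median responses were 0.30 in Nadler and 0.47 in Wadman rats. The Nadler count was 8 with only the 24 rats in the fit and 10 with array weights, while the Wadman count was 10 in both. Ptgs2, the inducible cyclooxygenase, had values of 10.72, 11.13 and 11.17 in Nadler day 1 rats and 9.03, 9.40 and 9.75 in Nadler controls, and of 11.03, 11.49 and 12.12 in Wadman day 1 rats and 8.29, 8.80 and 9.04 in Wadman controls. Day 1 and control rats did not overlap in either laboratory. It rose by 1.65 ± 0.33 in Nadler and by 2.82 ± 0.33 in Wadman rats, and the difference of -1.17 ± 0.46 had an unadjusted p of 0.0149 and did not pass (limma, adjusted p = 0.506). The transcription factor gene Fosl2 rose by 1.56 in Nadler and 2.12 in Wadman rats. The polo-like kinase Plk2, the stress gene Gadd45b and the scaffold gene Homer1 rose in Wadman rats, by 1.74, 1.87 and 1.16, with Nadler responses of 0.62, 0.95 and 0.25 that did not pass. Fos was at 5.46, 6.27 and 7.73 in Nadler day 1 rats and 5.34, 6.29 and 6.96 in Nadler controls, and at 6.77, 7.69 and 9.28 in Wadman day 1 rats and 6.88, 7.81 and 8.22 in Wadman controls, with overlap in both. Arc, whose product acts at synapses, had 5.67, 6.13 and 6.20 in Nadler day 1 rats and 6.41, 6.91 and 7.58 in Nadler controls, which did not overlap, yet the response of -0.97 ± 0.72 did not pass. In Wadman rats Arc was at 4.98, 6.30 and 9.68 at day 1 and at 5.99, 6.20 and 6.45 in controls, so all 6 day 1 rats lay outside the control range, some above and some below it. Bdnf, a neurotrophin, rose by 1.05 ± 0.36 in Wadman rats (adjusted p = 0.0233) and its Nadler response was 0.56 ± 0.36 (adjusted p = 0.305).

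Of 20 neuropeptide and secretory granule genes, 7 (35%) rose and 3 (15%) fell in Nadler rats, beside 12.4% and 9.24% of all genes. In Wadman rats 8 (40%) rose and 0 fell, beside 16.4% and 16.2% of all genes. Npy, neuropeptide Y, was at 9.46, 10.07 and 10.96 in Nadler day 1 rats and 6.62, 7.51 and 7.80 in Nadler controls, and at 10.12, 11.72 and 12.31 in Wadman day 1 rats and 7.08, 8.03 and 8.40 in Wadman controls. It rose by 2.85 ± 0.50 in Nadler and by 3.56 ± 0.50 in Wadman rats, apart from controls in every rat. The opioid precursor Penk rose by 1.75 in Nadler and 1.66 in Wadman rats and the granin Chga by 1.34 and 1.32. Pdyn, the precursor of dynorphin, which granule cells release, fell by 2.09 in Nadler rats, and its Wadman response of -1.17 did not pass. Vgf, the precursor of several secreted peptides, rose by 1.94 in Wadman rats, and its Nadler response of 0.67 did not pass. Neither Pdyn nor Vgf differed after adjustment between the laboratories. Of 23 neurotrophins and growth factors, 4 (17.4%) rose and 5 (21.7%) fell in Nadler rats. In Wadman rats 6 (26.1%) rose and 6 (26.1%) fell. The growth factor Gdf10 and the binding protein Igfbp5 fell, with responses of -2.76 and -1.70 in Nadler and -2.42 and -2.83 in Wadman rats, and the fibroblast growth factor Fgf1 rose by 2.28 in Nadler and 2.00 in Wadman rats.

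Over all genes 12.4% rose and 9.24% fell in Nadler rats, and 16.4% rose and 16.2% fell in Wadman rats. Col11a1 belongs to the extracellular matrix genes by function, although it was not in their list. Of 30 measured matrix genes, 12 (40%) rose and 2 (6.67%) fell in Nadler rats. In Wadman rats 18 (60%) rose and 3 (10%) fell. The median response was 0.34 in Nadler and 0.75 in Wadman rats, and the median difference -0.28. The galectin Lgals3 rose by 2.98 in Nadler and 3.33 in Wadman rats, the protease Mmp9 by 1.92 and 1.75, and the protease inhibitor Timp2 by 2.18 and 1.49, while the glypican Gpc3 fell, with responses of -2.81 and -3.33. Tnc, Acan and Col4a1, which encode tenascin C, aggrecan and a basement membrane collagen, rose in Wadman rats by 0.77, 0.88 and 0.81. Their Nadler responses of 0.08, -0.00021 and 0.14 did not pass, and their differences did not pass after adjustment. Inflammation genes rose in 7 of 16 (43.8%) in Nadler and in 10 of 16 (62.5%) in Wadman rats, and 1 (6.25%) fell in each. The acute phase protease inhibitor Serpina3n rose by 3.40 in Nadler and 3.05 in Wadman rats, the chemokine Ccl2 by 2.13 and 2.06, and Stat3 by 1.66 and 1.94. Interferon response genes rose in 5 of 15 (33.3%) and fell in 2 (13.3%) in each laboratory.

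**Figure D5:**
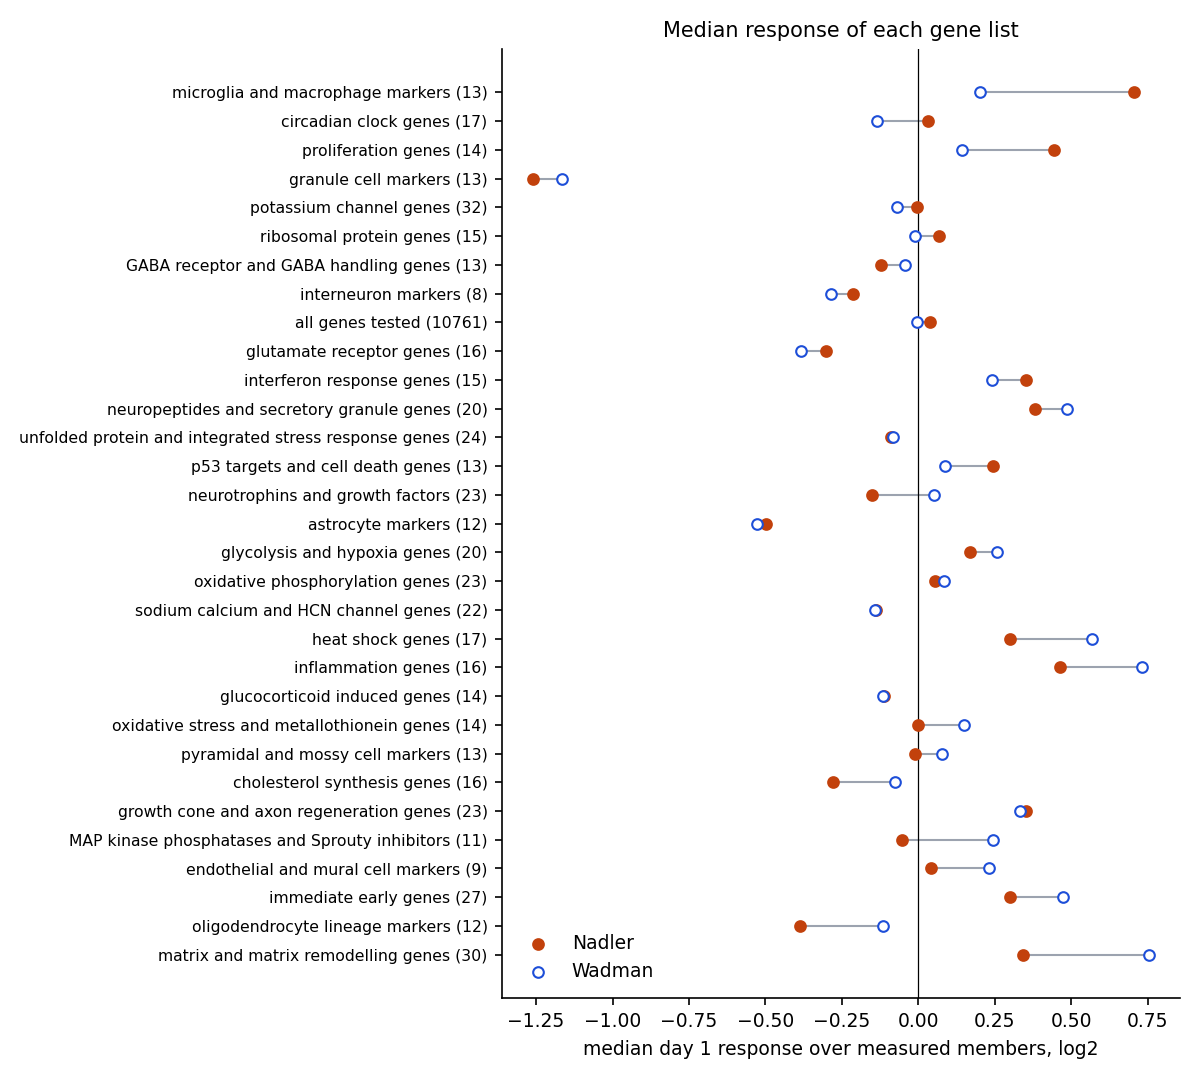
Median day 1 response over the measured members of each gene list, on the log2 scale, with Nadler as filled and Wadman as open points, the number of members in brackets, and lists ordered by the median difference of responses. Microglia and macrophage markers stand at 0.70 in Nadler and 0.20 in Wadman rats, matrix genes at 0.34 and 0.75, and granule cell markers at -1.26 and -1.17.

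As the background for the stress genes, 12.4% of all genes rose and 9.24% fell in Nadler rats. In Wadman rats 16.4% rose and 16.2% fell. Of 17 heat shock genes 6 (35.3%) rose in Nadler and 10 (58.8%) in Wadman rats, and 0 fell, with medians of 0.30 and 0.57. The small heat shock protein gene Cryab rose by 2.27 in Nadler and 2.07 in Wadman rats, and the cochaperone gene Bag3 by 1.25 and 2.00. Hspa1a, the inducible Hsp70, rose by 0.99 ± 0.19 in Nadler and by 0.62 ± 0.19 in Wadman rats. Of 14 genes of oxidative stress, 3 (21.4%) rose and 1 (7.14%) fell in Nadler rats. In Wadman rats 4 (28.6%) rose and 1 (7.14%) fell. Srxn1, sulfiredoxin, which restores oxidised peroxiredoxins, averaged 9.95 in Nadler day 1 rats and 9.11 in Nadler controls, and 11.41 in Wadman day 1 rats and 8.97 in Wadman controls. It rose by 2.45 in Wadman rats, its Nadler response of 0.84 did not pass, and the difference of -1.61 ± 0.48 had an unadjusted p of 0.00147 (limma, adjusted p = 0.419). Of 24 genes of the unfolded protein and integrated stress responses, 3 (12.5%) rose and 4 (16.7%) fell in Nadler rats. In Wadman rats 4 (16.7%) rose and 4 (16.7%) fell. Of 13 p53 targets and cell death genes, 4 (30.8%) rose and 2 (15.4%) fell in Nadler rats. In Wadman rats 4 (30.8%) rose and 3 (23.1%) fell. The cell cycle inhibitor Cdkn1a rose by 1.99 in Nadler and 2.25 in Wadman rats and Gadd45a by 2.05 and 2.14.

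As the background for genes of inhibition, excitability and growth, 9.24% of all genes fell in Nadler and 16.2% in Wadman rats. Rises made up 12.4% in Nadler and 16.4% in Wadman rats. GABA receptor and handling genes fell in 4 of 13 (30.8%) in Nadler and 5 of 13 (38.5%) in Wadman rats, and 0 rose. The tonic receptor subunits Gabrd and Gabra5 fell, with responses of -1.18 and -1.46 in Nadler and -1.89 and -1.91 in Wadman rats, as did the chloride exporter Slc12a5, with -0.67 and -1.14. Glutamate receptor genes fell in 5 of 16 (31.2%) in each laboratory (9 in Nadler rats with array weights), with 0 rises in Nadler and 1 in Wadman rats, and the responses of Grm3 were -1.47 in Nadler and -1.58 in Wadman rats. Of 32 potassium channel genes, 6 rose and 7 (21.9%) fell in Nadler rats, and 5 rose and 10 (31.2%) fell in Wadman rats. The channel gene Kcnq5 fell, with responses of -1.40 in both, and so did Kcnip2, a partner of A-type channels, with -1.97 in Nadler and -1.78 in Wadman rats. Of 22 sodium, calcium and HCN channel genes, 1 rose and 5 (22.7%) fell in Nadler rats and 0 rose and 5 (22.7%) fell in Wadman rats, and with array weights 8 fell in Nadler rats. The 1 rise was that of Cacna1g, which was dim in all 4 groups. Growth cone genes rose in 7 of 23 (30.4%) in Nadler and 10 of 23 (43.5%) in Wadman rats, and 3 (13%) fell in each. Gap43, which is linked to mossy fibre sprouting, rose by 1.68 in Nadler and 1.70 in Wadman rats, and the tubulin gene Tubb6 by 2.45 and 1.41.

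For the lists that follow, 12.4% of all genes rose and 9.24% fell in Nadler rats. In Wadman rats 16.4% of all genes rose and 16.2% fell. Clock genes rose in 2 of 17 (11.8%) and fell in 3 (17.6%) in Nadler rats. In Wadman rats 2 (11.8%) rose and 6 (35.3%) fell. The output genes Dbp and Tef fell in Wadman rats, with responses of -0.99 and -0.79, beside Nadler responses of 0.08 and -0.02 that did not pass, and the hour of death is not given in the sources used here. Of 14 glucocorticoid-induced genes 2 (14.3%) rose and 3 (21.4%) fell in Nadler rats. In Wadman rats 4 (28.6%) rose and 4 (28.6%) fell. Among 20 genes of glycolysis and hypoxia, 4 (20%) rose and 2 (10%) fell in Nadler rats. In Wadman rats 8 (40%) rose and 1 (5%) fell. The Nadler count of rises was 8 after quantile scaling or with array weights. Among 16 cholesterol synthesis genes 3 (18.8%) fell in Nadler and 2 (12.5%) in Wadman rats, with 0 rises. Among 23 genes of oxidative phosphorylation 1 (4.35%) rose in Nadler rats, and 5 (21.7%) rose and 1 (4.35%) fell in Wadman rats. Ribosomal protein genes, 15 in number, had 1 rise (6.67%) in Nadler and 3 (20%) in Wadman rats. Among 11 MAP kinase phosphatases and Sprouty inhibitors 0 passed in Nadler rats, and 3 (27.3%) rose and 1 (9.09%) fell in Wadman rats. None of the 8 interneuron markers passed in Nadler rats and 1 fell in Wadman rats, and among 9 endothelial markers 1 fell in Nadler and 1 rose in Wadman rats. Other settings moved some of these counts by over 1.5 times. With array weights, under which rises over all genes in Nadler rats went up to 2023 and falls to 1571, 5 genes of oxidative stress rose and 5 of cholesterol synthesis and 5 clock genes fell in Nadler rats, while 3 genes of oxidative phosphorylation rose and 2 glucocorticoid-induced genes fell in Wadman rats. With the stricter filter, which measures fewer members, 3 inflammation, 1 interferon, 2 proliferation and 4 growth cone genes rose in Nadler rats, and 4 inflammation, 2 interferon, 6 growth cone and 10 matrix genes rose in Wadman rats. Over all 30 lists no member's response differed between the laboratories after adjustment.

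The laboratories also differed in level. Nadler and Wadman controls differed in 4100 genes (38.1%; 2220, 20.6%, higher and 1880, 17.5%, lower in Nadler rats), and the day 1 rats in 4192 (39%; 2516, 23.4%, higher and 1676, 15.6%, lower). For Prox1 the day 1 rats differed by -0.48 and the controls by -0.65, Nadler minus Wadman (limma, adjusted p = 0.00222 and 7.3e-05). For Fos the day 1 rats differed by -1.57 and the controls by -1.42 (adjusted p = 0.0157 and 0.029). With the median of every array set equal, 78.5% of the calls between controls and 76.6% of those between day 1 rats were higher in Nadler rats, instead of 54.1% and 60.0%, and the medians of all genes moved to 0.195 and 0.172. The highest signal of an array was 4167 to 5461 in Nadler day 1 rats and 4561 to 5407 in Nadler controls. It was 6812 to 8343 in Wadman day 1 rats and 7595 to 11170 in Wadman controls. The difference of responses subtracts only a gap that is constant on the log2 scale, and whether the gap is constant was not tested. Laboratory, supplier and arrays cannot be told apart in the levels themselves.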

How the data were processed

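Granule cells of the dentate gyrus from 24 rats, 6 in each of 4 groups, were profiled with 1 Affymetrix array a rat. The deposited values are linear signal intensities per probe set, made by the authors with MAS5, per the submitters' processing notes, and its version is not given in the sources used here. Every array had the same trimmed mean, of 150.04 to 150.06 after the lowest and highest 2% were left out. Amplification and hybridisation were done at 1 centre, per the labels' protocols, and no batch is given.

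Of 31099 probe sets, 57 controls were left out. Genes were named from the platform annotation: 20826 probe sets had 1 symbol, 436 had several and 9780 had none, and only the first kind was used. A probe set was kept where its signal passed the array's median in at least 6 of the 164 rats of the series, which left 19949 probe sets. The probe set with the highest mean over all rats stood for a gene, and 2677 of 10761 genes had several. No array was dropped or imputed. In the series 8 rats had a repeat array, which was averaged with the first on the log2 scale. Most Dingledine controls, a Nadler day 3 rat and an SSSE day 1 rat were among them.

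Values were tested as log2(signal + 16) with limma 3.58.1 in R 4.3.3 (lmFit and eBayes) in 1 fit over the 8 kainate groups, with contrasts for each response, for the difference of responses and for levels. Pilocarpine and SSSE rats had fits of their own. P-values were adjusted over all genes by Benjamini-Hochberg and called under 0.05. A 16 added to the signal shrinks the differences of dim genes. The precision is limited by the number of arrays. The procedure was tested on simulated data. Array measures were compared with exact two-sided permutation tests.

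Genes were named where they passed the difference of responses, and 14 preset genes were named whatever their values. The 10 with the largest smaller response among those passing in both laboratories in 1 direction were named too. Up to 4 members of each list were also to be named if they passed the difference of responses, and no member did. Genes outside this rule are said to be so, or are examples from the lists that no rule chose. The comparison, the 30 gene lists and the preset genes were chosen with earlier results of these data known. Alternatives were other pseudocounts and filters, quantile scaling, equal medians, the mean of probe sets, other sets of rats in the fit, array weights, the rat number as a block, and leaving out each rat.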

Additional observations from a re-analysis of the deposited data

Results flagged for a closer look

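The difference between the Nadler and the Wadman response of Col11a1, of -2.10 on the log2 scale, is listed because the test of the difference itself passed.

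A rat lay far from the other 5 of its group in 5 of 100 groups examined, and chance alone gives about 1 in 20. Ptgs2 in Nadler day 1 rat 1 was at 10.72, below the others at 11.00 to 11.17. Col6a3 in Nadler control rat 5 was at 6.26, above the others at 4.76 to 5.28. Hspb1 in Wadman control rat 2 was at 5.30, above the others at 4.08 to 4.42. The median correlation of an array with the others of its group was 0.96 in Nadler day 1 rat 1, against 0.981 to 0.982 in the rest of that group, and 0.965 in Nadler control rat 5, against 0.982 to 0.983 in the rest.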

How the results depend on the processing

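The difference of responses at day 1, with 1 gene called, gave 5 genes with a pseudocount of 64, 2 with a filter at the 75th percentile and 3 after quantile scaling, Rnf123 among them each time, and 0 with only the 24 rats or all 28 groups in the fit. At day 3 the count of 0 became 2 with no filter and 1 with a pseudocount of 1, the 75th percentile filter, quantile scaling, equal medians, array weights or without 6 doubted rats. The pilocarpine count of 0 became 2 with no filter, 2 with only the day 1 and control rats, 3 with array weights and 412 with all 28 groups. Array weights gave 3594 calls for the Nadler response. No label says that the rat numbers pair rats. Correlations of same-numbered deviations ran from -0.0462 to 0.371, with 7 of 12 over 0.1. Whether the numbers pair rats was not tested. A replicate block gave 1 gene for the difference of responses, 2501 and 3701 for the Nadler and Wadman responses, 2494 for controls and 2680 for day 1 rats.

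Leaving out 1 rat of the 4 kainate groups at a time gave 1 to 3 genes for the difference of responses at day 1. The Nadler response gave 1952 to 2392 genes and the Wadman response 3179 to 3548. Controls differed in 3744 to 4172 genes and day 1 rats in 3807 to 4244, and the mean response passed in 4220 to 4484. The difference of responses gave 0 to 1 gene at day 3 and 0 to 0 at day 10. Pilocarpine rats had their own fit and none was left out, so their count could not change here. Rnf123 was added without Nadler control rat 3, and Rnf123 and Dclk1 without Wadman day 1 rat 4. Col11a1 ran from -2.30 to -1.95 and was called in all 24 fits.

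Small differences of responses changed sign: Hspb1 to -0.29 and Timp1 to 0.12 with a pseudocount of 1, Crispld2 to -0.0887 with 64, -0.265 after quantile scaling and -0.0486 with equal medians, Prox1 to -0.000655 after quantile scaling, and Col6a3 to 0.121 with array weights. With 1 rat left out they ran from -0.0616 to 0.587 for Trh, -0.348 to 0.115 for Col6a3, -0.265 to 0.283 for Crispld2, -0.067 to 0.462 for Ntf3 and -0.423 to 0.120 for Fos. The Nadler response of Fos ran from -0.146 to 0.308 and the Wadman response of Arc from -0.130 to 0.810. The cause of these changes was not tested. Of the results on single genes and lists under other settings, 1505 kept their call, 44 moved, 7 changed sign, 3 lost and 1 gained a call. Of the counts of genes called per comparison, 98 stayed alike and 19 moved.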
